A study of Mus musculus with 2 samples.

Results

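TAM receptors and the bridging proteins of phosphatidylserine were followed as 7 genes in apoptotic osteoblasts from old and from young mice. The receptors are Axl, Mertk and Tyro3, the TAM ligands are Gas6 and Pros1, and the integrin bridging proteins are Mfge8 and Edil3. Members were taken by gene symbol through the GENCODE M21 annotation of GRCm38, each symbol had 1 identifier, and all 7 of the 55487 genes in the deposited table were found. The old group was 1 library of apoptotic osteoblasts labelled old, and the young group was 1 library of the same cell type labelled young. For both groups the labels describe outgrowth from bone pieces, passage to mesenchymal stem cells, culture in osteogenic medium and ultraviolet light to make the osteoblasts apoptotic. The sources used here do not give strain, exact age or how many animals or cultures stand behind each library. A treatment label reads day 5 for the old library and day 0 for the young, and the protocol text gives none, so day and age cannot be told apart. With 1 library per group no difference has a replicate check, no test was run, and a difference between these libraries is not shown to be a difference between the ages.

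A dying cell turns phosphatidylserine, a lipid normally kept on the inner side of the membrane, to its surface, where it marks the cell for engulfment (efferocytosis). Axl, Mertk and Tyro3 are receptor tyrosine kinases that do not bind the lipid directly but through soluble bridging proteins. Gas6 binds every TAM receptor, whereas protein S, the product of Pros1, acts through Tyro3 and Mertk, and both ligands need vitamin K-dependent carboxylation to hold the lipid. Mfge8 and Edil3 bind phosphatidylserine with one end and alpha-v integrins on the phagocyte with the other. In most settings the receptors are studied on the engulfing cell, but stromal cells also carry them, Axl above all.

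The stretch before the start site is printed for the members with the highest ratio of old to young (Axl), the lowest ratio (Mertk) and the highest level (Gas6). The sequences are from RefSeq on GRCm38.p6 and cover the 250 bases before the annotated start, 5′ to 3′ on the gene's strand. Capitals mark the GC box, the letters GGGCGG on either strand. The Axl stretch is chr7:25788734-25788983 on the minus strand, that of Mertk is chr2:128698665-128698914 on the plus strand, and that of Gas6 is chr8:13494536-13494785 on the minus strand.
Axl: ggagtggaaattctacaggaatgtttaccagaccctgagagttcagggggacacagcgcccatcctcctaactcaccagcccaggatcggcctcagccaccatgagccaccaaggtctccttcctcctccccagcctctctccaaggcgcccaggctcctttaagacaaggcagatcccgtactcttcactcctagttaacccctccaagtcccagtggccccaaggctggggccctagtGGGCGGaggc
Mertk: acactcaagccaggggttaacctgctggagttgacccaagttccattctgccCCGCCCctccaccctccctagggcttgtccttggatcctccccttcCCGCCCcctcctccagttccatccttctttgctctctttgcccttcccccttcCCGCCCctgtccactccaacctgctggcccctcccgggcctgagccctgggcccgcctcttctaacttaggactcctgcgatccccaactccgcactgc
Gas6: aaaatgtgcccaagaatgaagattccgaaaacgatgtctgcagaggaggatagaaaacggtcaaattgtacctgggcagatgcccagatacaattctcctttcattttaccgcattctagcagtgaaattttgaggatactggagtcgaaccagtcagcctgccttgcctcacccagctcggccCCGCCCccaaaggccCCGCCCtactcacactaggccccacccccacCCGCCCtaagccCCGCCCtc

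The promoter table held 6 of the 7 members, all but Edil3. The Axl stretch held 1 GC box, on the sense strand and close to the start, that of Mertk held 3 and that of Gas6 4, all antisense. The other members in the table, Tyro3, Pros1 and Mfge8, also held it, against 32.7% of the 32851 promoter windows in the table. The Tyro3 window touches 2 annotated exons of Tyro3, so it does not lie wholly before the gene as annotated. None of the 6 windows held the AP-1 site TGANTCA (6.75% of all windows) or the TATA box TATAAA (12.4%) on either strand. These matches describe letters in a window, not binding. GC content was 60.0% for Axl, 63.6% for Mertk and 54.8% for Gas6, against a median of 52.4% over all windows. It was 73.2% for Tyro3, 64.4% for Pros1 and 65.2% for Mfge8.

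Levels are given in FPKM, the fragments assigned to a gene scaled to the length of that gene and to the total assigned in the library. The low values lie on steps that give back whole read numbers: 18114336 reads in the old library and 16333396 in the young. Square brackets hold 95% intervals from these reads. They cover counting error only, since copies made by PCR are not independent molecules, and they say nothing about the spread between animals or cultures. Differences were measured as log2 ratios of FPKM + 1, old over young. They were taken over 12561 genes whose mean reached 1 FPKM, and 2-fold was the threshold for calling a gene higher or lower. All 7 members passed that filter. Osteoblast markers ranged widely in level. Col1a1, the main bone collagen chain, was at 6788 FPKM in the old and 8568 FPKM in the young library. Runx2, a lineage transcription factor, was at 72.7 FPKM (old) and 92.1 FPKM (young). Alkaline phosphatase (Alpl) was low, at 3.28 FPKM (old) and 2.78 FPKM (young), on 47 reads (old) and 36 reads (young). Osteocalcin (Bglap) had 6 reads (old) and 3 reads (young). Levels of these markers differed between the libraries: of 10 markers 8 passed the filter, 2 were at least 2-fold higher and 0 lower, with a median log2 ratio of −0.01. The higher ones were the matrix genes Spp1, with 1732 FPKM (old) against 224 FPKM (young) and 18.8% of its exon bases overlapped by Gm42793, and Dmp1, with 4.85 FPKM (old) against 0.377 FPKM (young). The transcription factor Sp7 was lower, with 28.9 FPKM (old) against 55.5 FPKM (young). With a pseudocount of 5 or a filter at 10 FPKM, 1 marker was called higher. The part of these differences in those of the members was not tested.

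The 7 genes did not move together. Axl was higher in the old library, Mertk was lower, Edil3 was moderately higher, and Tyro3, Gas6, Pros1 and Mfge8 had FPKM ratios between 1.05 and 1.21. At 2-fold, 1 member (Axl) was higher and 0 were lower, where 1.97% of all genes tested were higher and 0.868% lower. At 1.5-fold, a threshold added after the values were known, 2 members (Axl and Edil3) were higher and 1 (Mertk) was lower, beside 5.52% higher and 4.47% lower among all genes. The median log2 ratio of the members was 0.21, with 6 above 0 and 1 below, while the median over all genes tested was −0.07, with 40.4% above 0. The members were chosen with earlier results of these data known, so these counts describe them and are not evidence about them as a group.

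**Figure D1:**
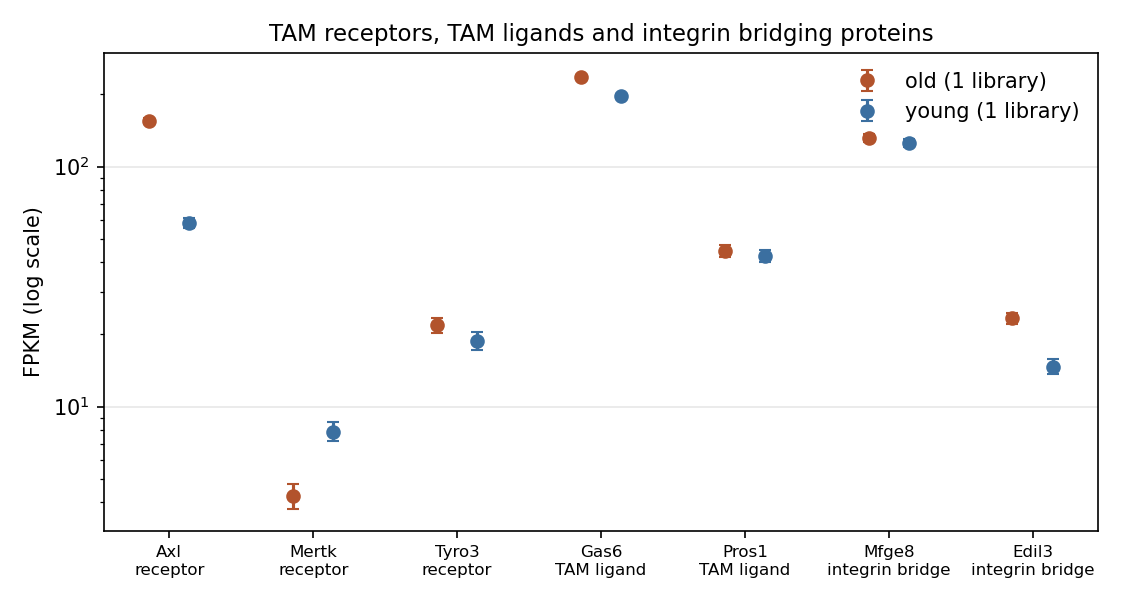
FPKM of the 7 members on a log scale in the old library (left point of each pair) and the young library (right point), with 95% counting intervals and 1 library per group. Axl stands at 155 FPKM in the old and 58.4 FPKM in the young library, Mertk is the lowest member in both, and Gas6 is the highest in both.

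Among the receptors, Axl (ENSMUSG00000002602, chromosome 7, 25757273 to 25788705, minus strand, GRCm38) was at 155 FPKM [151 to 159] in the old library and 58.4 FPKM [55.6 to 61.3] in the young. These levels rested on 4753 reads in the old and 1615 reads in the young library. The FPKM ratio was 2.65 [2.51 to 2.81] and the log2 ratio of FPKM + 1 was 1.39. By that log2 ratio Axl ranked 111 of 12561 from the top, and 11 among the 1160 genes whose mean reached 100 FPKM. In level it lay above 94.8% of the genes tested in the old library and 81.8% in the young. No base of its exons is overlapped by another annotated gene, and none of its 50-base words occurs in the transcripts of another gene, Mertk and Tyro3 included.

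Mertk (ENSMUSG00000014361, chromosome 2, 128698956 to 128802894, plus strand), the receptor on which macrophages largely rely to clear dead cells, went the other way. It was at 4.25 FPKM [3.76 to 4.78] in the old library and 7.87 FPKM [7.16 to 8.63] in the young, on 271 reads (old) and 453 reads (young). Its FPKM ratio was 0.539 [0.462 to 0.628], and its log2 ratio of FPKM + 1, −0.76, ranked 249 from the bottom of 12561. Its level was low: 19.2% of the genes tested in the old library and 29.1% in the young lay below it. The interval of its FPKM ratio includes a 2-fold lower value. Calls used the log2 ratio of FPKM + 1, for which no interval was computed, and by that ratio Mertk was not at 2-fold.

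Tyro3 (ENSMUSG00000027298, chromosome 2, 119797733 to 119818104, plus strand), best known from the nervous system, was at 21.8 FPKM [20.3 to 23.5] in the old library and 18.8 FPKM [17.2 to 20.4] in the young, on 731 reads (old) and 566 reads (young). The ratio was 1.16 [1.04 to 1.30], an interval that lies just above 1. Tyro3 and Mertk lie on the same chromosome and had ratios on opposite sides of 1.

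Comparing ratios within the libraries removes the library scaling. The old over young ratio of Axl was 4.92 times that of Mertk [4.18 to 5.80], 2.28 times that of Tyro3 [2.01 to 2.58] and 2.20 times that of its ligand Gas6 [2.06 to 2.34], with exact conditional intervals. Such a ratio of ratios was computed for all 21 pairs of members, and in 17 the interval left out 1. The 4 pairs whose interval held 1 were Tyro3 with Gas6 (0.965 [0.860 to 1.08]), Tyro3 with Pros1 (1.11 [0.964 to 1.27]), Tyro3 with Mfge8 (1.11 [0.984 to 1.26]) and Pros1 with Mfge8 (1.01 [0.914 to 1.11]). The intervals were not adjusted for the number of pairs. The share among pairs of other genes was not computed, so the count of 17 describes these pairs and is not a result about the members.

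**Figure D2:**
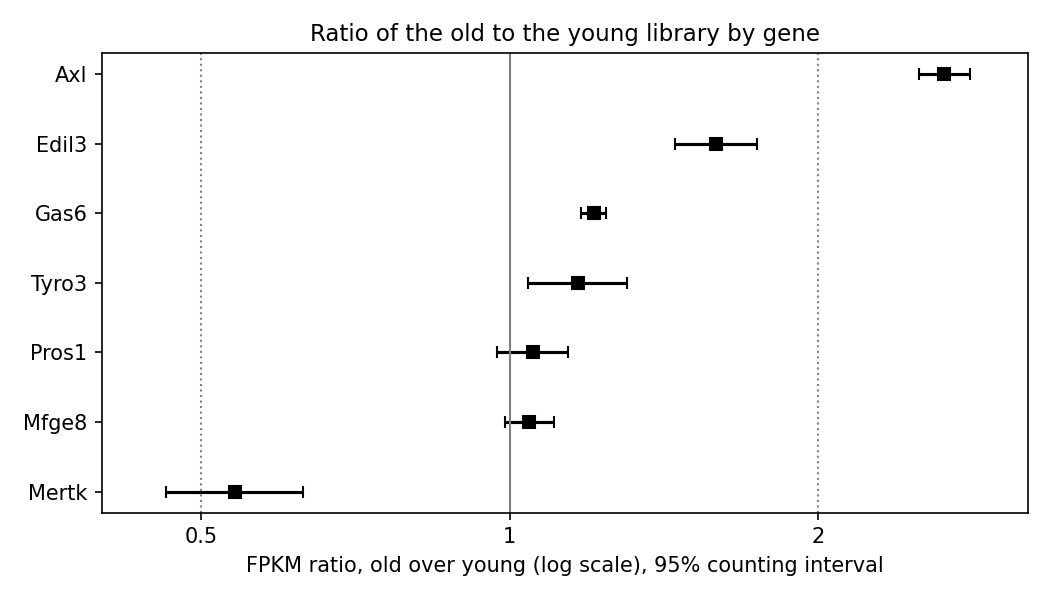
FPKM ratio of old over young for each member on a log scale, with its exact 95% counting interval; the solid line marks an even ratio and the dotted lines a 2-fold difference. Axl at 2.65 lies beyond 2-fold, Mertk at 0.539 is the member below 1, and the intervals of Pros1 and Mfge8 include 1.

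The make-up of TAM receptor mRNA differed between the libraries. Summed over the receptors, the level was 181 FPKM in the old and 85.0 FPKM in the young library. Axl made up 85.6% of that sum in the old library and 68.7% in the young. Tyro3 made up 12.1% of it in the old and 22.1% in the young, and Mertk 2.35% in the old and 9.26% in the young. Shares per length depend on the length used, and the deposited values match the mean over all transcripts annotated for a gene, which is 1694 bases for Axl and 3523 for Mertk. Recomputed with the longest transcript, Axl made up 83.1% in the old and 62.0% in the young library and Mertk 4.70% in the old and 17.2% in the young. With all annotated exons joined, Axl made up 84.0% in the old and 62.1% in the young library, and Mertk 5.56% in the old and 20.2% in the young. Under each of the 3 lengths the Axl share was larger, and the Mertk share smaller, in the old library. The order of Tyro3 and Mertk in the young library depended on the length: Tyro3 was 2.38 times Mertk with the mean length, 1.21 times with the longest transcript and 0.874 times with joined exons.

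**Figure D3:**
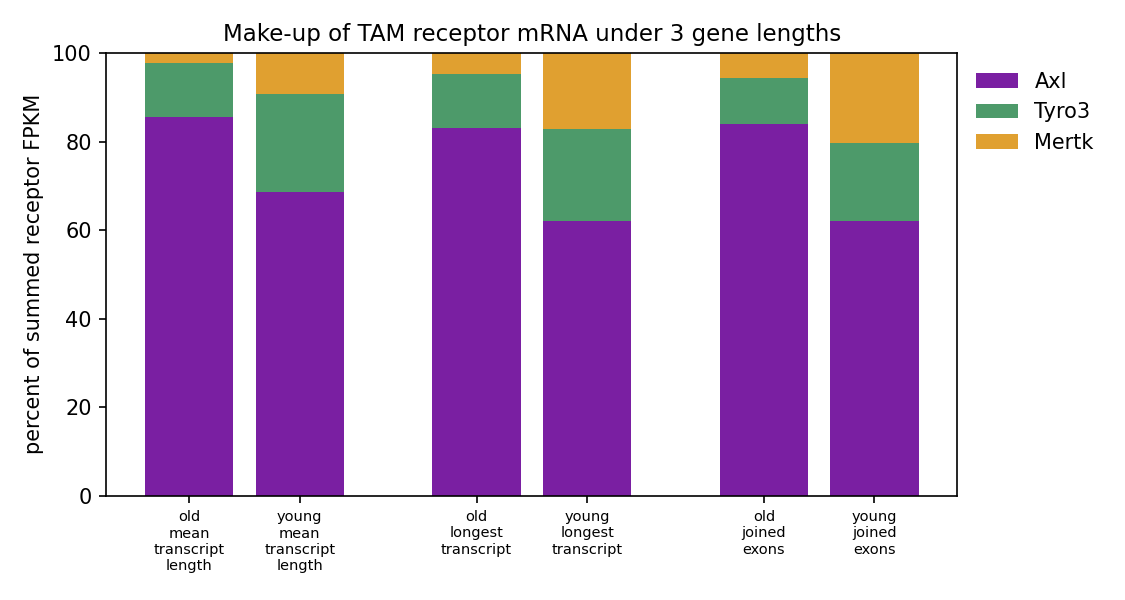
Percent of the summed FPKM of Axl, Tyro3 and Mertk held by each receptor, in the old (left bar) and young (right bar) library, for 3 choices of gene length. Axl takes 83.1% to 85.6% in the old library and 62.0% to 68.7% in the young.

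Gas6 (ENSMUSG00000031451, chromosome 8, 13465374 to 13494490, minus strand), the ligand of all TAM receptors, was the most abundant member. It was at 237 FPKM [232 to 241] in the old library and 196 FPKM [192 to 200.5] in the young, on 10932 reads (old) and 8164 reads (young). Its level lay above 96.9% of the genes tested in the old library and 96.2% in the young. The ratio of 1.21 [1.17 to 1.24] was above 1 by more than counting error and far from 2-fold. An opposite-strand gene, Tmem255b, overlaps 1.33% of its exon bases, and no source states that strand was used in counting.

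Pros1 (ENSMUSG00000022912, chromosome 16, 62854307 to 62929346, plus strand), which encodes the anticoagulant protein S, was at 44.5 FPKM [42.2 to 47.0] in the old and 42.3 FPKM [39.9 to 44.9] in the young library. Its reads numbered 1333 in the old and 1142 in the young library, and the interval of its ratio, 1.05 [0.972 to 1.14], included 1. Gas6 stood at 5.32 times Pros1 per length in the old library and 4.63 times in the young. With the longest transcript Gas6 was 10.6 times Pros1 (old) and 9.27 times (young), and with joined exons 13.2 times (old) and 11.5 times (young). Gas6 was also above Axl, by 1.53 times in the old library and 3.36 times in the young. The size of that excess depends on the gene length: with the longest transcript it was 3.85 times in the old and 8.46 times in the young library, and with joined exons 4.54 times in the old and 9.99 times in the young. Both ligands together stood at 1.55 times the receptor sum in the old library and 2.81 times in the young. This ratio also depended on the length. It was 3.50 (old) and 5.81 (young) with the longest transcript, and 4.10 (old) and 6.74 (young) with joined exons.

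Of the integrin bridging proteins, Mfge8 (ENSMUSG00000030605, chromosome 7, 79133768 to 79149060, minus strand), also called lactadherin, was at 131 FPKM [126 to 136] in the old library and 126 FPKM [121 to 131] in the young. It had 2804 reads (old) and 2419 reads (young) and a ratio of 1.05 [0.990 to 1.10]. Edil3 (ENSMUSG00000034488, chromosome 13, 88821472 to 89323223, plus strand), also called Del-1, was at 23.3 FPKM [22.1 to 24.6] in the old and 14.7 FPKM [13.6 to 15.8] in the young library, on 1281 reads (old) and 727 reads (young). Its ratio of 1.59 [1.45 to 1.74] was the highest after Axl. The old over young ratio of Mfge8 was 0.658 times that of Edil3 [0.591 to 0.732], so these relatives differed from each other by more than counting error. Mfge8 stood at 5.63 times Edil3 per length in the old library and 8.56 times in the young. With the longest transcript Mfge8 was 5.00 times Edil3 (old) and 7.59 times (young), and with joined exons 6.38 times (old) and 9.70 times (young).

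Ordered by FPKM, the old library ran Gas6, Axl, Mfge8, Pros1, Edil3, Tyro3 and Mertk, and the young library Gas6, Mfge8, Axl, Pros1, Tyro3, Edil3 and Mertk. Of neighbours in these orders, only Edil3 and Tyro3 in the old library had counting intervals that overlapped. With the longest transcript as length, Mfge8 (66.4 FPKM) stood above Axl (61.5 FPKM) in the old library as well. With joined exons the lowest member in the young library was Edil3 (3.25 FPKM), below Tyro3 (5.59 FPKM) and Mertk (6.40 FPKM). In the old library joined exons put Tyro3 (6.51 FPKM) above Edil3 (5.17 FPKM). Gas6 was the highest member in both libraries under all 3 lengths.

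**Figure D4:**
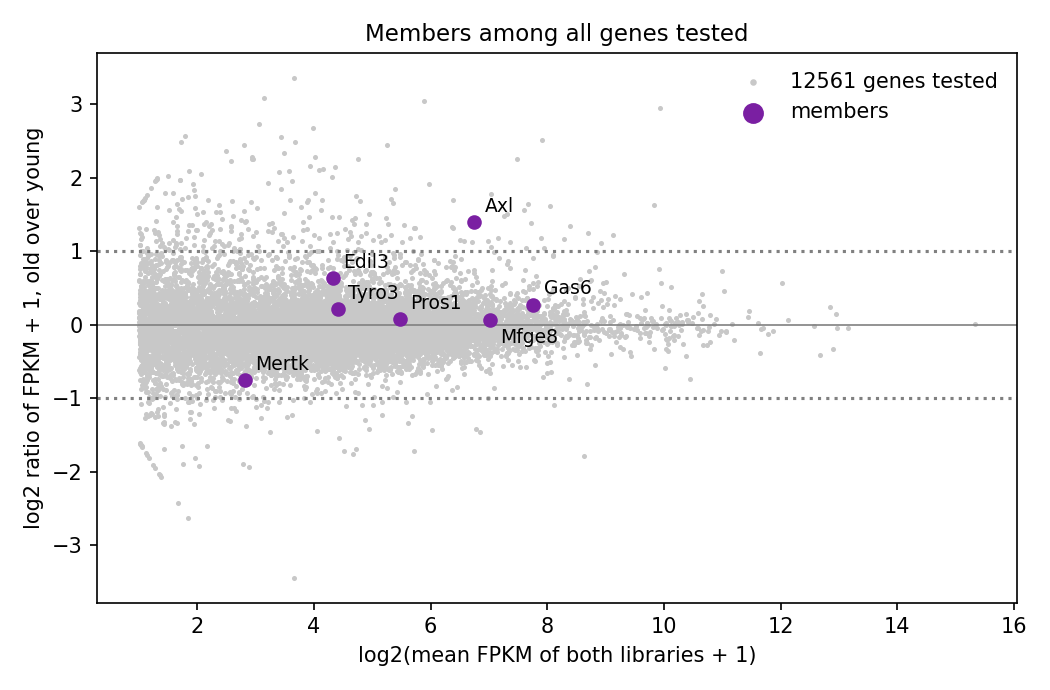
Log2 ratio of FPKM + 1, old over young, against the log2 of the mean FPKM + 1 for the 12561 genes tested (grey) and the 7 members (purple); dotted lines mark 2-fold. Axl, at 1.39, is the member outside the lines, and Mertk, at −0.76, lies among genes of low level.

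The protein-coding genes closest to each member in the plane of the log2 values of both libraries were found by Euclidean distance. For Axl they were Timp1 (143 FPKM in the old and 65.2 FPKM in the young library, distance 0.19), mt-Atp6 (130.4 FPKM in the old, 58.5 FPKM in the young, distance 0.25) and Igf1 (123 FPKM in the old, 55.2 FPKM in the young, distance 0.34). The value of mt-Atp6 is uncertain, since 100% of its words also occur in Gm10925. For Mertk the nearest was Epha4 (4.34 FPKM in the old, 7.71 FPKM in the young, distance 0.04), and for Edil3 it was Syne1 (23.4 FPKM in the old, 14.5 FPKM in the young, distance 0.02). Likeness over 2 libraries describes the levels and nothing more.

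Macrophages carry Mertk and Axl, so their markers were read beside the receptors. Of 17 macrophage genes, 3 passed the filter (Cd68, Lyz2 and Cd14), and the whole list summed to 32.7 FPKM in the old and 30.4 FPKM in the young library. Adgre1 (F4/80), Itgam, Mrc1, C1qa and Cx3cr1 had 0 reads in both libraries, and Ptprc (CD45) had 0 in the old and 1 in the young. Csf1r had 6 reads in the old and 1 in the young library, Laptm5 4 (old) and 0 (young), and Cd163 4 (old) and 2 (young). Spi1, Tyrobp, Marco and Aif1 had 1 read each in the old library and 0 in the young, and Fcgr1 had 1 in each. For Adgre1, a count of 0 allows up to 0.103 FPKM in the old and 0.114 FPKM in the young library, taking 3 reads as the limit. Cd14, a lipopolysaccharide receptor, had 9.15 FPKM in the old and 4.49 FPKM in the young library, a log2 ratio of 0.89, and it reached 2-fold with a pseudocount of 0.1. Lyz2 was at 18.4 FPKM (old) and 21.3 FPKM (young), a ratio of 0.862 [0.755 to 0.985]. Cd68 was at 4.36 FPKM (old) and 4.51 FPKM (young), a ratio of 0.966 [0.688 to 1.36]. The median log2 ratio of these 3 genes was −0.04. Without the filter, over all genes of the list with reads in either library, the median was 0.08. Axl is also found on vessel cells. Of 11 endothelial genes 2 passed the filter, Flt1 and Eng, and the list summed to 38.4 FPKM in the old and 19.6 FPKM in the young library, of which Flt1 alone was 35.1 FPKM (old) and 16.8 FPKM (young). Flt1, a receptor for vascular endothelial growth factor, was counted as 2-fold higher, with a log2 ratio of 1.02, but not with a pseudocount of 5. The part of Flt1 and Cd14 in the receptor values was not tested. Emcn and Cldn5 had 0 reads in both libraries, Cdh5 had 2 in the old and 0 in the young, and Pecam1 had 6 in the old and 13 in the young. In bulk samples fewer cells of a type and less RNA per cell cannot be told apart.

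Integrins that receive Mfge8 and Edil3 went both ways, with 0 of 5 at 2-fold and a median log2 ratio of −0.02. Itgb5, the beta-5 chain, was at 226 FPKM in the old and 166 FPKM in the young library, a ratio of 1.36 [1.31 to 1.42]. Other genes share 9.87% of its words. Itgb3, the beta-3 chain, was at 3.80 FPKM (old) and 2.36 FPKM (young), a ratio of 1.61 [1.35 to 1.93]. Their partner Itgav, the alpha-v chain, was lower at 72.6 FPKM (old) and 86.2 FPKM (young), a ratio of 0.843 [0.803 to 0.885]. Itga8 and Itgb1 had ratios of 0.95 [0.825 to 1.09] and 0.984 [0.961 to 1.01].

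Receptors that bind phosphatidylserine without a bridge were scarce. Of 13 such genes 2 passed the filter, with 0 at least 2-fold higher and 1 lower. The lower was Ager, the receptor RAGE, at 1.27 FPKM in the old and 4.17 FPKM in the young library on 34 reads (old) and 101 reads (young), a ratio of 0.304 [0.199 to 0.452]. No gene of the list was called lower with a pseudocount of 5 or a filter at 10 FPKM. Stab2, a scavenger receptor, was at 1.71 FPKM (old) and 1.33 FPKM (young). Timd4, Havcr1, Adgrb3 and Cd300lf had 0 reads in both libraries.

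Among other bridging proteins, 4 of 11 passed the filter, 1 was at least 2-fold higher and 0 were lower, with a median log2 ratio of 0.50. The higher one was Lgals3, galectin-3, reported as a further ligand of Mertk, at 309 FPKM in the old and 98.3 FPKM in the young library. Anxa1 (annexin A1), Thbs1 (thrombospondin 1) and Ccn1, a matricellular bridge to integrins, had log2 ratios of 0.69, 0.31 and −0.44. The complement genes C1qa, C1qb and C1qc had 0 reads in both libraries.

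The vitamin K cycle, which carboxylates Gas6 and protein S, was close to even, with 0 of the 6 genes tested (of 7 listed) at 2-fold and a median log2 ratio of −0.10. Ggcx, the carboxylase, was at 51.3 FPKM in the old and 55.0 FPKM in the young library, a ratio of 0.932 [0.864 to 1.01]. Vkorc1l1, a vitamin K epoxide reductase, was at 24.4 FPKM (old) and 27.4 FPKM (young), a ratio of 0.887 [0.807 to 0.976]. Of the words of Vkorc1l1, 11.9% are shared with other genes. Aifm2, which reduces vitamin K, was at 9.01 FPKM (old) and 10.95 FPKM (young), a ratio of 0.822 [0.678 to 0.997]. Of the 6 genes tested, 5 had log2 ratios below 0 and 1 above. Vkorc1, the warfarin target, had 4 reads in each library, and its overlap with other genes was not checked. Of 14 other genes for vitamin K-dependent proteins 4 passed the filter with 0 at 2-fold and a median log2 ratio of 0.16, 3 above 0 and 1 below. The 1 below was Mgp, the matrix inhibitor of calcification, at 1146 FPKM (old) and 1270.4 FPKM (young).

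Proteases that cut Axl and Mertk from the surface differed little. Adam10 was at 72.2 FPKM in the old and 67.4 FPKM in the young library, a ratio of 1.07 [1.01 to 1.13], and Adam17 at 25.1 FPKM (old) and 24.1 FPKM (young), a ratio of 1.04 [0.959 to 1.13]. Rhbdf1 and Rhbdf2, which carry Adam17 to the surface, had log2 ratios of 0.23 and 0.28. The 1 gene of this list of 5 at 2-fold was Timp3, an inhibitor of Adam17, at 290.2 FPKM (old) and 98.2 FPKM (young), a ratio of 2.96 [2.85 to 3.07]. Its value is uncertain, since Syn3 on the opposite strand overlaps 21.3% of its exon bases and 19.3% of its words are shared with other genes.

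Genes that relay the TAM signal had 0 of 20 (of 22 listed) at 2-fold and a median log2 ratio of 0.02. Pik3r1, the regulatory subunit of PI3-kinase, was farthest from even at 74.9 FPKM in the old and 38.0 FPKM in the young library, a ratio of 1.97 [1.85 to 2.11], and it reached 2-fold when ratios were centred on the median of all genes. Tns2, Grb2 and Shc1, the next in size, had log2 ratios of 0.32, −0.27 and 0.20. Other genes share 8.82% of the words of Grb2 and 13.6% of those of Shc1. Rac1, the GTPase that drives engulfment, was at 192 FPKM in the old and 186 FPKM in the young library, with 51.4% of its exon bases overlapped by Daglb on the opposite strand. In macrophages and dendritic cells TAM receptors pair with the type I interferon receptor and induce Socs1, Socs3 and Twist genes. Of 9 genes listed for this link, 0 were at 2-fold and the median log2 ratio was 0.01. Socs3 was lower at 83.7 FPKM in the old and 168 FPKM in the young library, a ratio of 0.498 [0.469 to 0.529], which counted as 2-fold lower at a pseudocount of 0.1 and after rescaling without the 10 most abundant genes. Socs1 was at 4.42 FPKM (old) and 4.39 FPKM (young), Twist1 had a log2 ratio of −0.32 and Twist2 one of 0.61, where an opposite-strand gene, Gm29100, covers 46.5% of its exon bases.

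**Figure D5:**
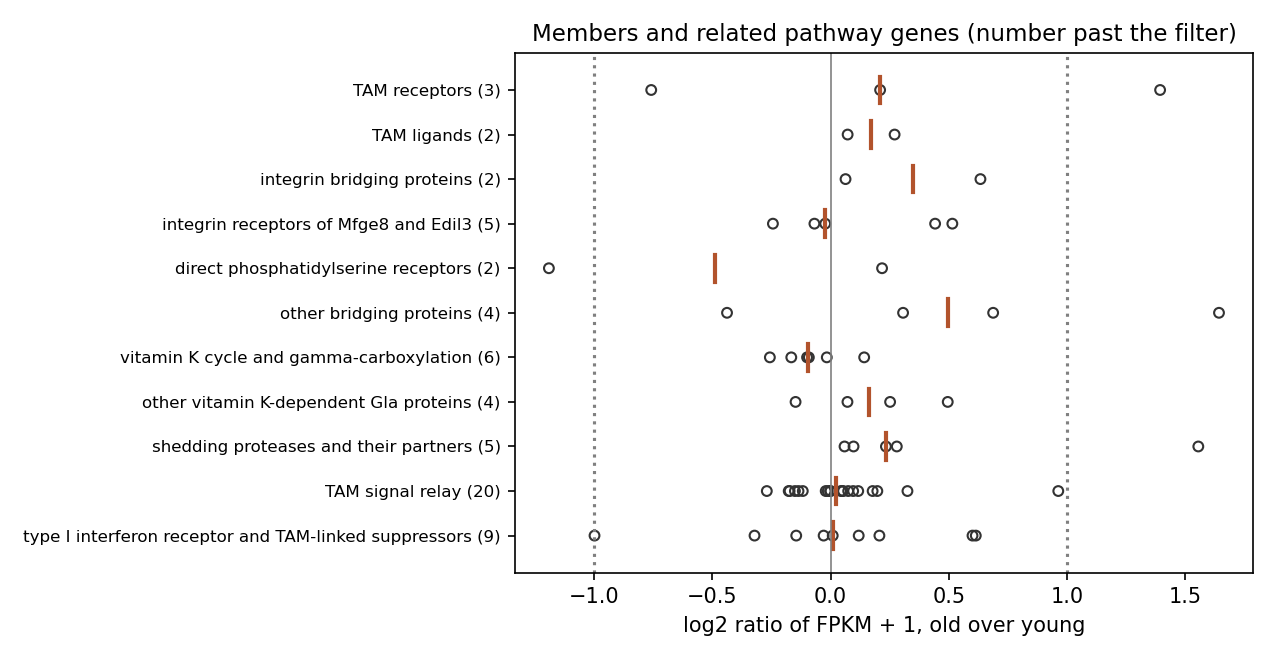
Each gene's log2 ratio (old over young, FPKM + 1), shown for all genes past the filter (circles) in the member lists and the related pathway lists, with the list median as a bar and 2-fold as dotted lines. Axl, Lgals3 and Timp3 lie above 2-fold and Ager below it, while the vitamin K cycle genes lie near 0.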

How the data were processed

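RNA sequencing covered 1 library of apoptotic osteoblasts from old mice and 1 from young mice. The authors deposited 1 FPKM value per Ensembl gene and library. Per the submitters' processing notes the build was mm10 and the tools were fastp, STAR, HTSeq and edgeR. Their roles and versions, the annotation release, filters and strand setting are not stated in these sources. GENCODE M21 (GRCm38) held 55227 of 55487 identifiers. Reads were worked out from the deposited FPKM with the rounded mean transcript length as gene length, and 97.6% of values above 0 came out whole within 0.01. Ratios carry exact Clopper-Pearson intervals of the old share of reads, levels exact Poisson intervals and ratios of ratios exact conditional intervals, all at 95% (SciPy 1.17.1). Log2 ratios used a pseudocount of 1, which makes differences of low genes smaller. The calculation was tested on simulated Poisson read counts. These had no PCR copies and no spread between animals or cultures, so that test covers the arithmetic only. Shared sequence was searched with words of 50 bases every 25, and exon overlap with bedtools 2.31.1. Genes below the filter were not searched.

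Members, lists and thresholds were chosen with earlier results of these data known. Named genes are all members, from each list some or all of the 4 genes that differed most, any at 2-fold, markers at or near 0, and the nearest genes in level. Others named, such as Rac1 and Socs1, were chosen after their values were seen. Pseudocount, filter, scaling, fold and gene length were varied. The value of 1 list gene is not reported here.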

Additional observations from a re-analysis of the deposited data

How the results depend on the processing

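The direction of all 7 members and the count of 1 member higher and 0 lower at 2-fold were kept under 2 other pseudocounts, 2 other filters and 2 other scalings, except that Mertk has no value with the filter at 10 FPKM. Over these and the ratio without a pseudocount, the log2 ratio ran between 1.34 and 1.46 for Axl and between −0.89 and −0.48 for Mertk. At 1.5-fold, 2 members were higher and 1 lower. The background counts moved more. From 248 genes higher and 109 lower they went to 408 and 236 when 0.1 was the pseudocount, to 101 and 20 when it was 5, to 106 and 27 with the filter at 10 FPKM, and to 693 and 561 at 1.5-fold, where each setting changes how low genes or small differences count. The Axl share of receptor FPKM was 83.1% in the old and 62.0% in the young library with the longest transcript, and 62.1% in the young with joined exons. No paired analysis was possible because each group has 1 library, and for the same reason no replicate could be left out. Mertk, on 271 reads in the old and 453 in the young library, is the member whose precision depth limits most.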
